A study of Mus musculus with 21 samples.

Results

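Interferon response genes are the genes that cells switch on when they sense interferon, and a list of 50 of them was followed here. The list holds sensors of viral RNA and DNA, the transcription factors that carry the signal, antiviral effectors, ubiquitin and ADP-ribosylation enzymes, interferon-inducible GTPases, antigen processing genes and feedback regulators. Each gene was read by the probe set annotated to it alone that had the highest mean log2 intensity over all 21 arrays. Of the 50 genes 48 had such a probe set, out of 18194 genes measured in all. Ifi44 had no probe set here, and Isg15 appeared only on a probe set annotated to several genes, so neither is described further. The choice of probe set used no difference between groups, but the list was chosen with earlier results of these data known.

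The arrays measured RNA of sorted mouse bone marrow cells on the C57/BL6 background, to ask what loss of Dot1l does in each cell type. LSK cells (negative for lineage markers, positive for Sca-1 and Kit) include the blood stem cells, and GMP are granulocyte-macrophage progenitors. Control cells came from mice labelled Dot1 wt/wt x Mx-Cre, with 6 LSK and 5 GMP arrays, and Dot1l-deleted cells from mice labelled Dot1l fl/fl x Mx-Cre, with 6 LSK and 4 GMP arrays. All of these mice carried the Mx-Cre transgene and, as the series describes it, were given PIPC, so the controls share the recombinase and the injection. The sources used here give neither age nor the time from injection to sorting, and no uninjected mouse was analysed here. The labels do not say whether arrays stand for separate animals, so a p-value speaks only for the spread between these samples, and precision is limited by how many arrays there are.

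Type I interferons bind a receptor whose kinases start a signal that reaches the nucleus with STAT2 and IRF9, which act at the interferon-stimulated response element of target promoters. Interferon gamma acts largely through a separate promoter element called GAS. PIPC, a synthetic double-stranded RNA, is itself a trigger of type I interferon, and Mx-Cre is driven by the interferon-inducible Mx1 promoter. The members are thus genes of the kind of response that was used to delete Dot1l. Whether their levels here reflect the injection was not tested. Interferon is known to push haematopoietic stem cells into division for a short time.

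Dot1l itself did not separate the genotypes on these arrays. In LSK its log2 level was 6.48 ± 0.30 (SD, n = 6) for controls and 6.38 ± 0.35 (SD, n = 6) after deletion. In GMP it was 6.74 ± 0.16 (SD, n = 5) for controls and 6.22 ± 0.42 (SD, n = 4) after deletion. Limma gave an adjusted p of 0.985 in LSK and 0.340 in GMP, and the sources used here do not tell where the probe set lies relative to the deletion. A Dot1l-deleted LSK array, K1272, was unlike its group (mean Spearman correlation 0.649), so many of the results that use that group are also given without it. The Dot1l-deleted GMP arrays K1190 and K1272 were close to each other, at a Spearman correlation of 0.988 over genes and a median difference of 0.18 (log2, sign ignored) over the members, where the other pairs of that group differed by at least 0.496. Marker lists ordered the cell types by their labels. The 7 LSK sort markers were Kit, Flt3, Cd34, Slamf1, Hlf, Mecom and Procr. The 9 GMP sort markers were Fcgr3, Fcgr2b, Kit, Cd34, Mpo, Elane, Prtn3, Ctsg and Ms4a3. The lists share Kit and Cd34 and hold genes beyond the antigens sorted on, so they do not measure sort purity. LSK sort markers had a mean log2 level of 8.66 in control LSK and 5.37 in control GMP. For the GMP sort markers these were 8.81 and 10.73. In Dot1l-deleted LSK the LSK sort markers had a mean of 7.10 ± 1.26 (n = 6), and all 7 were lower than in control LSK, none past the test, with a median log2 fold change of -1.17. Without array K1272 the mean was 7.502 ± 0.874 (n = 5) and the median -0.61, again with all 7 lower. Of all genes 41.6% were lower by sign, or 54.8% without that array.

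The members' readings ran from dim to bright. Averaged over all arrays, they went from 2.82 for Mx2 to 7.73 for Oas1a among antiviral effectors, from 5.13 for Dhx58 to 6.72 for Ifih1 among sensors, and from 5.58 for Irf7 to 7.97 for Irf1 among transcription factors. They ran from 4.12 for Usp18 to 10.67 for Trim25 among ubiquitin and ADP-ribosylation enzymes, from 5.15 for Irgm1 to 8.82 for Ifi47 among GTPases, from 8.33 for Tap1 to 10.87 for Psmb8 among antigen processing genes, and from 3.88 for Cxcl10 to 11.40 for Ly6e among the rest. Probe sets differ in how they respond, so these readings do not rank the genes by abundance. In all, 15 members lay below the median gene level of 5.54. The members varied more between arrays of one group than genes at large did: their median SD was 0.63 against 0.35 over all genes in control LSK, 0.80 against 0.65 in Dot1l-deleted LSK, 0.60 against 0.51 in control GMP and 0.59 against 0.47 in Dot1l-deleted GMP. The mean over all 48 members was 6.94 ± 0.21 (SD, n = 6) for control and 6.79 ± 0.30 (SD, n = 6) for Dot1l-deleted LSK, or 6.90 ± 0.15 (SD, n = 5) without array K1272. For GMP it was 6.10 ± 0.19 (SD, n = 5) and 6.27 ± 0.32 (SD, n = 4).

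**Figure D1:**
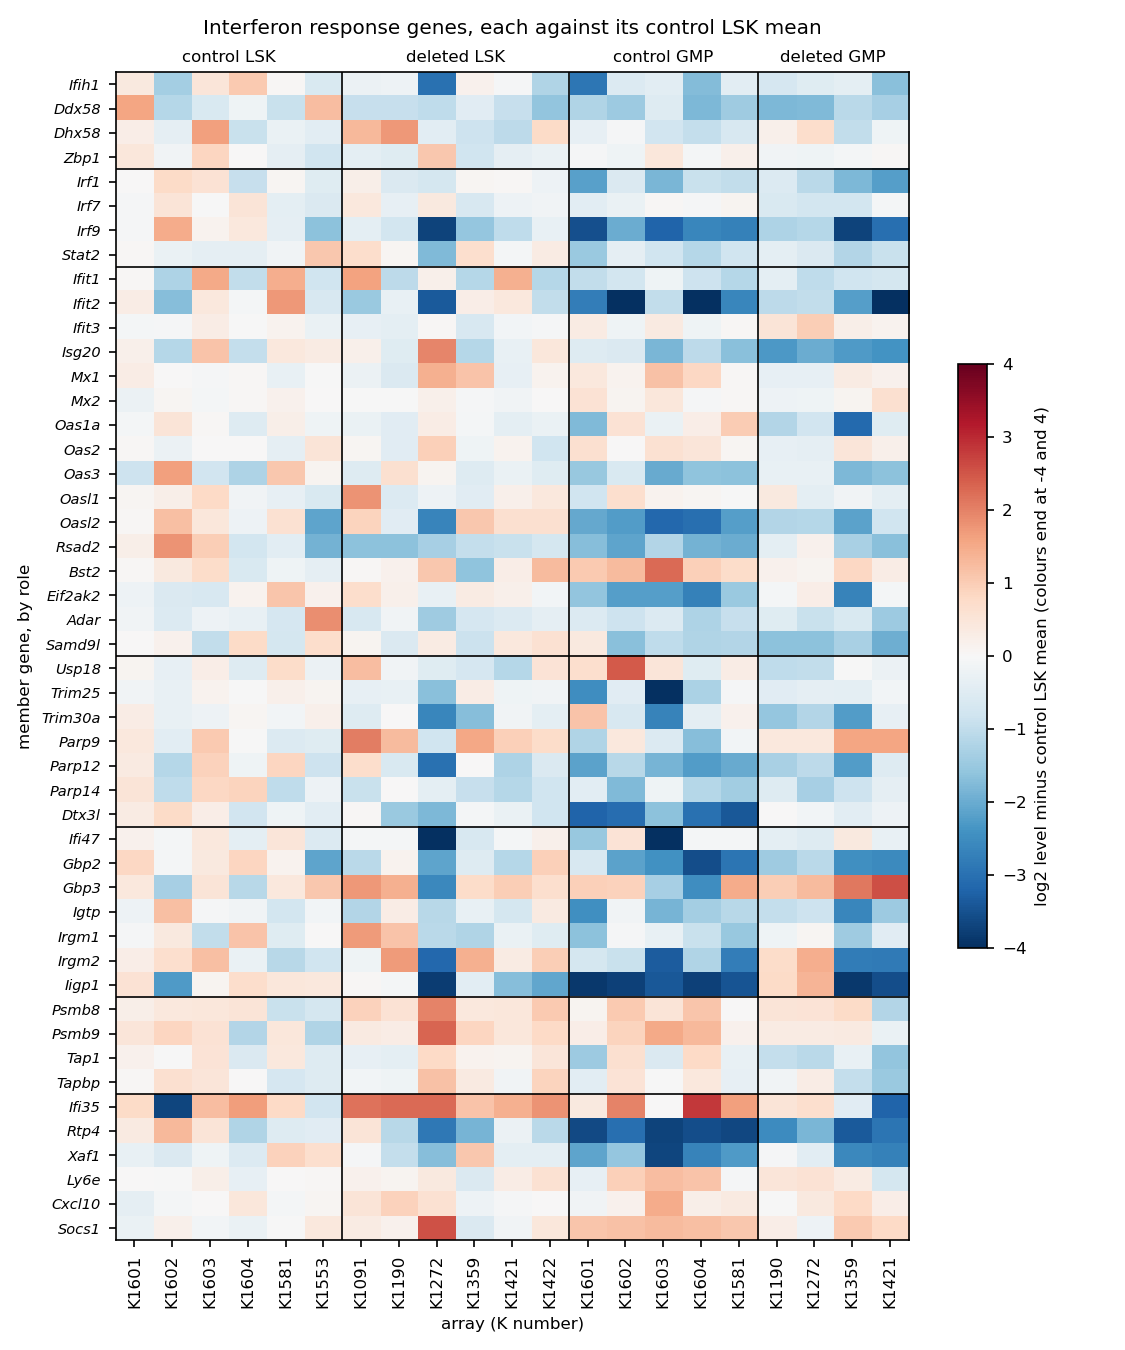
Log2 level of each of the 48 members on each of the 21 arrays, minus that member's mean in control LSK. Rows are members grouped by role with lines between roles, and columns are arrays by group with their K numbers. The control GMP columns are low for Iigp1, Rtp4, Ifit2 and Dtx3l, the Dtx3l row is pale in all 4 Dot1l-deleted GMP arrays, and the Dot1l-deleted LSK array K1272 differs from its group in many rows.

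Control GMP had lower levels of many members than control LSK. Of the 48 members 15 were lower at an adjusted p under 0.05 and 1 was higher by limma with Benjamini-Hochberg adjustment over all genes, so 33.3% of members were called where 12% of all genes were. Lower calls made up 31.2% of members beside 4.95% of all genes, and the higher call 2.08% beside 7.03%. By sign alone 33 members were lower and 15 higher, where 34.2% and 65.8% of all genes were. The median log2 fold change, GMP over LSK, was -0.85 over the members and 0.29 over all genes, and -0.79 and 0.12 after quantile normalization. In bulk RNA, fewer cells of a type and less RNA per cell cannot be told apart, here and in every comparison that follows.

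Rtp4, a chaperone-like membrane protein induced by interferon, was at 5.77, 6.94 and 8.29 (lowest, median and highest of 6 arrays) in control LSK. In control GMP it was at 3.36, 3.96, 3.29, 3.44 and 3.35. The groups did not overlap, and the log2 fold change was -3.50 ± 0.49 (SE, limma adjusted p 0.000279). A dimmer probe set of Rtp4 had a log2 fold change of 0.21 ± 0.26 in a fit over all 45101 probe sets, in the opposite direction.

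Dtx3l, an E3 ubiquitin ligase that works as a complex with the ADP-ribosyltransferase Parp9, ranged from 7.43 through a median of 8.24 to 8.96 in control LSK. The control GMP arrays read 4.999, 5.14, 6.56, 5.20 and 4.79, all below every control LSK array. Its log2 fold change was -2.85 ± 0.37 (adjusted p 0.00014), and its other probe set gave -2.16 ± 0.58.

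Eif2ak2, the RNA-activated kinase PKR that halts translation, lay between 6.69 and 8.41 with a median of 7.28 in control LSK. Control GMP arrays were at 5.74, 5.10, 5.12, 4.62 and 5.83, again without overlap, for a log2 fold change of -2.03 ± 0.43 (adjusted p 0.00562). Xaf1, a promoter of apoptosis, spanned 6.45 to 7.94 with a median of 6.78 in control LSK and read 4.90, 5.46, 3.36, 4.35 and 4.75 in control GMP. None of these GMP arrays reached the lowest LSK array, and the log2 fold change was -2.46 ± 0.53 (adjusted p 0.00669).

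Non-overlap in the lower direction was found for 6 members, Dtx3l, Rtp4, Eif2ak2, Xaf1, Irf9 and Iigp1, or 12.5% of members beside 3.43% of all genes. Irf9, the DNA-binding partner of STAT2, was lower, at a log2 fold change of -2.80 ± 0.61 (adjusted p 0.00699). Iigp1, a GTPase that attacks the vacuoles of intracellular parasites, had -3.64 ± 0.87 (adjusted p 0.0121). The other calls were Oasl2 at -2.53, Gbp2 at -2.34, Ifit2 at -2.90, Rsad2 at -1.77, Parp12 at -1.88, Irf1 at -1.29, Igtp at -1.39, Oas3 at -1.48 and Ddx58 at -1.28 on the log2 scale. They include effectors against viral RNA (Oasl2, Oas3, Ifit2, Rsad2), GTPases (Gbp2, Igtp) and the RNA sensor RIG-I, which Ddx58 encodes. The unused probe sets of Ddx58 had -2.10 and 0.19.

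The higher call was Bst2, or tetherin, which holds budding virions at the cell surface. It read 6.53 to 7.89 with a median of 7.08 in control LSK and 8.19, 8.40, 9.41, 8.12 and 7.87 in control GMP, where the lowest GMP array fell just short of the highest LSK array. The log2 fold change was 1.25 ± 0.40 with an adjusted p of 0.0494, and that call held in 10 of 34 other settings. Socs1, the inhibitor of JAK kinases that ends the response, was at 3.71, 3.91 and 4.41 (lowest, median and highest) in control LSK and at 5.07, 5.15, 5.23, 5.19 and 5.04 in control GMP. These ranges did not overlap, which held for 11.3% of all genes in the higher direction, and Socs1 had a log2 fold change of 1.17 ± 0.39 with an adjusted p of 0.0527. Its adjusted p was 0.00177 when array K1272 of Dot1l-deleted LSK, which adds to the shared estimate of spread, was left out.

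Ly6e, a surface protein, had a median of 11.20 in control LSK, between 10.85 and 11.41, and read 10.84, 12.15, 12.41, 12.33 and 11.15 in control GMP. Psmb9, an immunoproteasome subunit, ranged from 9.08 through 10.75 to 11.14 in control LSK and read 10.55, 11.18, 11.79, 11.58 and 10.44 in control GMP. Both overlapped between the groups, with log2 fold changes of 0.60 ± 0.30 and 0.83 ± 0.42 and adjusted p of 0.165 and 0.167. The other probe set of Ly6e gave 1.99 ± 0.40 with an adjusted p of 0.0051 over all probe sets, and Ly6e was called in 2 of 34 other settings, both of which change the choice of probe sets.

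By role, all 4 transcription factors were lower in control GMP, 2 of them past the test, with Irf7 at -0.12 and Stat2 at -0.91. All 7 GTPases were lower, 3 past the test, though 1 turned higher with quantile normalization or with an upper quartile covariate for the arrays. Among 16 antiviral effectors 10 were lower, with 5 calls, and 6 were higher, with 1 call. Ubiquitin and ADP-ribosylation enzymes were lower in 6 of 7 cases with 2 calls, sensors in 3 of 4 with 1 call, and the 6 feedback and other genes had 2 lower calls and 4 higher members. Antigen processing genes had 3 of 4 members higher and no call, a split of 2 and 2 when arrays were centred on their medians.

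Mx1, the gene whose promoter drives the Cre transgene, was among the members with little signal and no call, and whether its reading follows promoter activity was not tested. Its level was 3.92 ± 0.18 in control LSK, 4.18 ± 0.83 in Dot1l-deleted LSK, 4.45 ± 0.48 in control GMP and 3.89 ± 0.34 in Dot1l-deleted GMP. Usp18, which removes ISG15 from proteins, was at 4.09 ± 0.45, 3.99 ± 0.87, 4.77 ± 1.08 and 3.53 ± 0.51 in the same order. Both had ranges that overlapped between all 4 groups. Cxcl10, a chemokine released in response to interferon, was at 3.62 ± 0.26, 3.93 ± 0.44, 4.05 ± 0.62 and 3.98 ± 0.33. Irf7, the factor that amplifies interferon production, was at 5.73 ± 0.45, 5.65 ± 0.42, 5.61 ± 0.22 and 5.19 ± 0.31.

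Leaving out single arrays kept 9 of these 16 calls in all 21 cases, those of Dtx3l, Rtp4, Eif2ak2, Xaf1, Irf9, Oasl2, Iigp1, Gbp2 and Ifit2. Without control LSK array K1601 the count was 10 (6.11% of all genes), with Rsad2, Irf1, Bst2, Ddx58, Parp12 and Igtp lost, and without the Dot1l-deleted LSK array K1272 it was 20 (30.4% of all genes). With shared K numbers as a replicate block, 6 of the 16 calls were kept, where 2.50% of all genes were called. The calls lost there included those of Eif2ak2, Xaf1, Iigp1 and Ifit2.

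Promoters of the members were read for the elements that interferon factors bind. RefSeq promoter windows of assembly GRCm38.p6, from 250 bases before to 50 bases after an annotated start, were found for 37 of the 48 members. The interferon-stimulated response element was searched as a pair of GAAA half-sites with 2 bases of any kind between them, and the GAS element as TTCNNNGAA, on both strands. The first occurred in a window of 18 of the 37 members (48.65%) and of 3.99% of all genes with a window, and the GAS letters in 11 members (29.73%) and 9.55% of all genes. Both occurred in 5 members (13.51%) and 0.54% of all genes. A match of letters is a description and not a binding site. Of 13 members called lower in control GMP that had a window, 6 held the first element and 4 the second, and of the 24 others 12 and 7 did.

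Windows of 4 members follow as examples of both elements and of a called gene with neither, in lower case from 5′ to 3′ on the gene's own strand, with matched letters in capitals. Eif2ak2 (17:78882523-78882822, minus strand) has GAS letters that begin at base -178 and a response element that begins at base 18, counted from the annotated start at 0.
Eif2ak2: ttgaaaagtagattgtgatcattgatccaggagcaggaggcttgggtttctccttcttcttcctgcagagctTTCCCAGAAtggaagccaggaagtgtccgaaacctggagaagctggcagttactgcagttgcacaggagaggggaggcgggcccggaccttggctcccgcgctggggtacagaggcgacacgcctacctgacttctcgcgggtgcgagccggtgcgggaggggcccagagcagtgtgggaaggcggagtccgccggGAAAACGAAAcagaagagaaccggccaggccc
In Igtp (11:58199306-58199605, plus strand) the GAS letters begin at base -45 and the response element at base -34.
Igtp: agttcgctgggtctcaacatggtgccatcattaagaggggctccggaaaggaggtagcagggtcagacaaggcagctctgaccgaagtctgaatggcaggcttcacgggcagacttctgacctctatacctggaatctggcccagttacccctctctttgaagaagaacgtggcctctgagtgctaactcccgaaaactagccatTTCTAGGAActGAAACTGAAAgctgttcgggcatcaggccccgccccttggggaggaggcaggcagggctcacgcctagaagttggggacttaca
In Bst2 (8:71537423-71537722, minus strand) GAS letters at base -136 run into a pair of overlapping response elements at bases -130 and -124.
Bst2: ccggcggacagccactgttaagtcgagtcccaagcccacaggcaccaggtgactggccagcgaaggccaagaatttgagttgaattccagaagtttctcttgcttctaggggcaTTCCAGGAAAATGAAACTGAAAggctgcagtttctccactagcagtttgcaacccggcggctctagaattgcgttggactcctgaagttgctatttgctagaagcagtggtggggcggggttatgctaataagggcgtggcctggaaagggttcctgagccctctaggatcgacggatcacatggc
The window of Dtx3l (16:35938978-35939277, minus strand) held neither set of letters.
Dtx3l: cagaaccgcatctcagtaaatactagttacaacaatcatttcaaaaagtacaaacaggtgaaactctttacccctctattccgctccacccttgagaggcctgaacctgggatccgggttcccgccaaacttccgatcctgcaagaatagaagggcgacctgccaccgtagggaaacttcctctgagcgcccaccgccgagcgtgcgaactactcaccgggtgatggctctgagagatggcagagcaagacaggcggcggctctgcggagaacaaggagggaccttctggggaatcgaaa
So the elements were found in members with lower calls (Eif2ak2 and Igtp) and in the member with the higher call (Bst2) alike. Several members are neighbours in the RefSeq gene order, among them Parp14, Dtx3l and Parp9, as well as Psmb9, Tap1 and Psmb8.

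In LSK cells no member passed the test for a change with Dot1l deletion. Limma called 0 members, as it called 0% of all genes, and the smallest adjusted p of a member was 0.750. At an unadjusted p under 0.05 there were 4 members higher and 4 lower, each 8.33% of members beside 3.13% and 2.48% of all genes. By sign 20 members were higher and 28 lower, where 58.4% and 41.6% of all genes were. The median log2 fold change, Dot1l-deleted over control, was -0.07 over the members and 0.06 over all genes, and -0.10 and -0.03 without the Dot1l-deleted array K1272, where again 0 members were called, the smallest adjusted p was 0.454, and 1 member higher and 2 lower had an unadjusted p under 0.05 (3.36% and 2.17% of all genes). In that fit 19 members were higher and 29 lower, where 45.2% and 54.8% of all genes were. No member separated the LSK groups without overlap, as 0.187% of all genes did in the higher and 0.143% in the lower direction.

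Rsad2, or viperin, which blocks viral replication at lipid membranes, was at 4.37, 6.17 and 8.07 (lowest, median and highest) in control LSK and at 4.61, 5.12 and 5.56 in Dot1l-deleted LSK. The deleted arrays lay inside the wide control range, and the log2 fold change was -1.19 ± 0.46 (adjusted p 0.750). Ddx58 ranged from 5.22 through 5.96 to 7.95 in controls and from 4.77 through 5.42 to 5.91 in deleted arrays, with -0.97 ± 0.39. Rtp4 spanned 4.12 to 7.49 with a median of 5.89 in deleted arrays, and Irf9 went from 6.76 through 8.45 to 9.88 in controls and from 4.70 through 7.54 to 8.11 in deleted arrays. Both overlapped, with log2 fold changes of -1.10 ± 0.47 and -1.27 ± 0.58, and of -0.75 and -0.79 without array K1272. In that array Irf9 was at 4.70, below all 11 other LSK arrays.

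On the higher side, Ifi35, a leucine zipper protein induced by interferon, was at 4.18, 8.64 and 9.53 in control LSK and at 8.998, 9.85 and 10.12 in Dot1l-deleted LSK. The lowest deleted arrays lay among the highest controls, and its log2 fold change was 1.84 ± 0.78 (adjusted p 0.805), or 1.75 without array K1272. Parp9 spanned 5.65 to 7.23 with a median of 5.98 in controls and 5.39 to 8.24 with a median of 7.30 in deleted arrays, a log2 fold change of 0.95 ± 0.44. Without array K1272, its lowest reading, that was 1.31, with an adjusted p of 0.454.

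Psmb8, an immunoproteasome subunit that cuts proteins into peptides for MHC class I, was at 9.56, 10.76 and 10.96 in control LSK and at 10.86, 11.20 and 12.43 in Dot1l-deleted LSK, a log2 fold change of 0.90 ± 0.36. Psmb9 was at 9.08, 10.75 and 11.14 against 10.56, 10.91 and 12.59, with 0.85 ± 0.40. The top reading of both came from array K1272, and without it the log2 fold changes were 0.68 and 0.56. All 4 antigen processing members were higher in Dot1l-deleted LSK with or without that array, with no call. In the fit over all probe sets Tap1 and Tapbp had 0.14 ± 0.34 and 0.32 ± 0.33 there. Their direction depended on the probe set: unused ones gave -0.17, 0.10 and 0.11 for Tap1 and -0.18 for Tapbp. The unused one of Psmb8 gave 0.30.

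Array K1272 of Dot1l-deleted LSK set the extremes of many members. It lay above all 11 other LSK arrays for 11 members (22.9%, beside 43.5% of all genes) and below all of them for 17 (35.4%, beside 22.8%). Its low readings included the GTPases Ifi47 at 5.17, Irgm2 at 3.61, Iigp1 at 3.96 and Gbp3 at 5.07, and its high ones Psmb8 at 12.43, Psmb9 at 12.59, Tap1 at 9.31, Tapbp at 11.14 and Socs1 at 6.53. With it the GTPases had a median log2 fold change of -0.44 and 5 of 7 lower, and without it -0.14 and 4 of 7 lower.

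In GMP cells Dtx3l was the member that passed the test for a change with Dot1l deletion, and it rose. Limma called 1 of 48 members (2.08%) beside 0.143% of all genes, with the higher direction at 0.0824% of all genes. Control GMP arrays read 4.999, 5.14, 6.56, 5.20 and 4.79, as given above, and the Dot1l-deleted arrays read 8.21, 8.08, 7.76 and 7.99. All 4 deleted arrays were above all 5 controls, and they lay within the range of control LSK. The log2 fold change was 2.67 ± 0.41 (SE, adjusted p 0.00749), a 6.37-fold rise. It was called in each of the 33 other settings tried, at adjusted p of 1.08e-05 to 0.0410. Without the Dot1l-deleted LSK array K1272 it was the 1 member called, at an adjusted p of 0.00178, where 2.14% of all genes were called. The other probe set of Dtx3l had a log2 fold change of 1.90 ± 0.64 with an adjusted p of 0.237 over all probe sets, in the same direction.

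**Figure D2:**
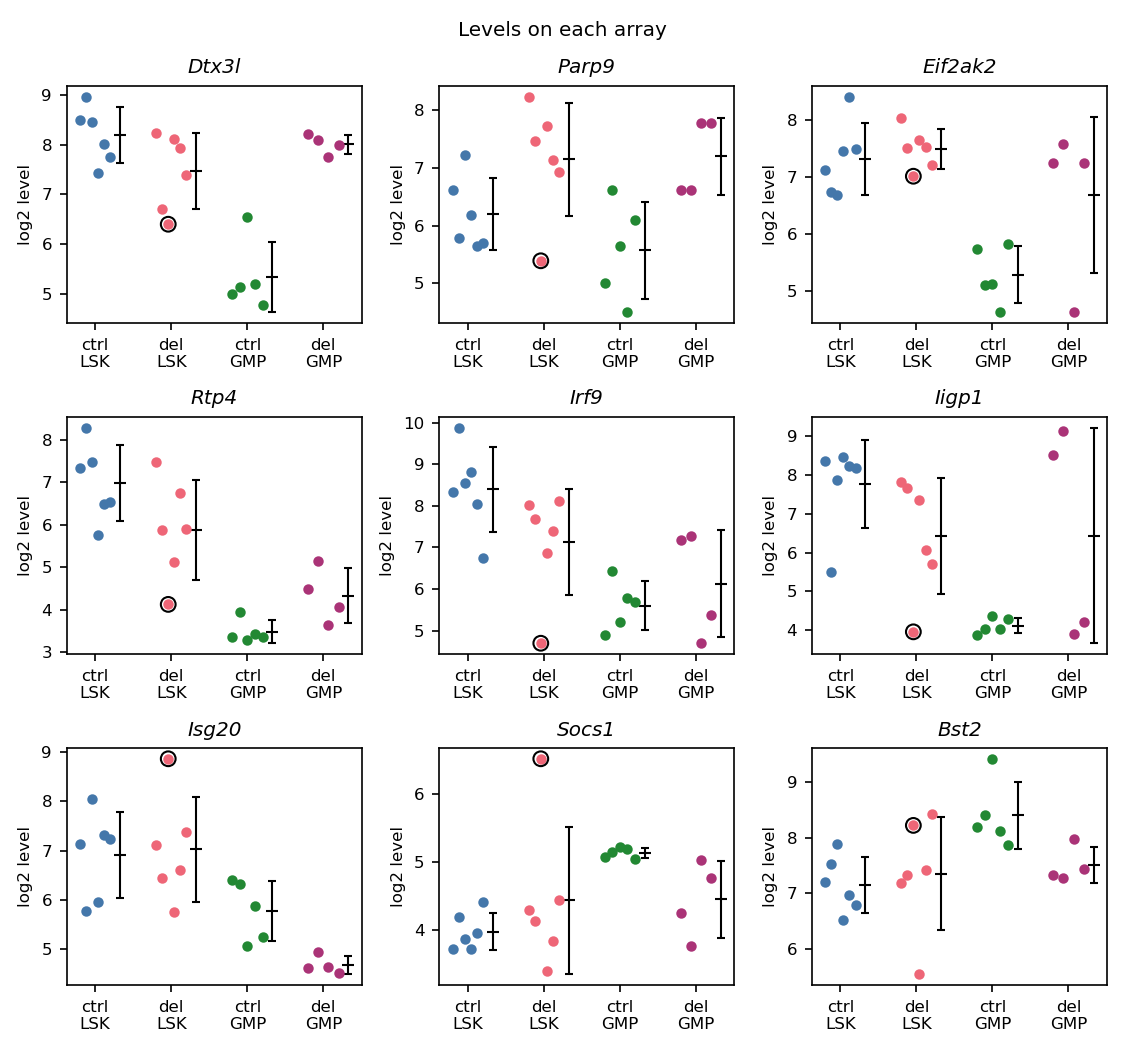
Log2 level of 9 members on each array, one panel per gene with its own vertical axis. Points are arrays of control LSK, Dot1l-deleted LSK, control GMP and Dot1l-deleted GMP, black bars are mean and SD, and a ring marks the Dot1l-deleted LSK array K1272. Dtx3l is lowest in control GMP (4.79 to 6.56), while Iigp1 and Irf9 are split within Dot1l-deleted GMP.

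Parp9, the partner and genomic neighbour of Dtx3l, was at 4.999, 6.63, 5.65, 4.49 and 6.09 in control GMP and at 6.63, 6.62, 7.78 and 7.79 in Dot1l-deleted GMP. The groups met at 6.63, and the log2 fold change was 1.63 ± 0.51 (adjusted p 0.205, and 0.0519 without the Dot1l-deleted LSK array K1272). Parp14, the neighbour on the other side, had 0.23 ± 0.42.

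Eif2ak2 read 5.74, 5.10, 5.12, 4.62 and 5.83 in control GMP and 7.24, 7.58, 4.64 and 7.24 in Dot1l-deleted GMP. Of the deleted arrays 3 were above every control and array K1359 was at the control level, for a log2 fold change of 1.39 ± 0.48 (adjusted p 0.232). Iigp1 read 3.89, 4.03, 4.36, 4.04 and 4.30 in controls and 8.52, 9.13, 3.89 and 4.21 in deleted arrays, so that the close arrays K1190 and K1272 were high and K1359 and K1421 were at the control level. Its log2 fold change of 2.31 ± 0.96 had an adjusted p of 0.309.

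Among members with lower values, Isg20, an exonuclease of viral RNA, was at 6.40, 6.33, 5.07, 5.88 and 5.25 in control GMP and at 4.62, 4.94, 4.63 and 4.52 in Dot1l-deleted GMP. All 4 deleted arrays were below all controls, and the log2 fold change was -1.11 ± 0.51 (adjusted p 0.348). Socs1 also separated the groups, at 5.07, 5.15, 5.23, 5.19 and 5.04 against 4.24, 3.76, 5.03 and 4.76, with -0.69 ± 0.43. Non-overlap therefore held for 2 members in the lower direction (4.17%, beside 2.97% of all genes) and for Dtx3l alone in the higher (2.08%, beside 1.81%).

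Oas1a, which makes the 2-5A messenger that activates RNase L, was at 6.29, 8.62, 7.80, 8.32 and 9.09 in control GMP and at 6.88, 7.30, 4.95 and 7.56 in deleted arrays, a log2 fold change of -1.35 ± 0.49 (adjusted p 0.252). Usp18 was at 4.76, 6.54, 4.59, 3.60 and 4.38 against 3.09, 3.10, 4.07 and 3.85, with -1.25 ± 0.50. Ifi35 was at 8.25, 9.86, 7.87, 10.69 and 9.51 against 8.38, 8.55, 7.40 and 4.65, with -1.99 ± 0.91. In each of these the groups overlapped.

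Over the list the GMP values balanced. At an unadjusted p under 0.05 there were 6 members higher and 4 lower (12.5% and 8.33%, beside 5.72% and 8.23% of all genes). There were 24 members higher and 24 lower (50% each, beside 34.3% and 65.7% of all genes), with a median log2 fold change of -0.0022 where that of all genes was -0.20. Quantile normalization moved the median of all genes to -0.09 and that of the members to 0.11, with 27 members higher. The GTPases were higher in 6 of 7 cases with a median of 0.85, or 0.33 with the upper quartile as a covariate, and the antigen processing genes were lower in 4 of 4 with a median of -0.63, neither with a call. Transcription factors split at 2 higher and 2 lower, or 1 and 3 with the covariate, with Irf9 at 0.53 ± 0.68, Stat2 at 0.16 ± 0.41, Irf1 at -0.11 ± 0.40 and Irf7 at -0.42 ± 0.27.

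The Dot1l-deleted GMP arrays were not alike in which members left the control range. The close arrays K1190 and K1272 were both above all control GMP for 12 members, Ifit3, Oas3, Oasl2, Rsad2, Irf9, Dhx58, Eif2ak2, Dtx3l, Rtp4, Xaf1, Irgm2 and Iigp1, or 25% of members beside 10.3% of all genes. Arrays K1359 and K1421 were both above for 3, Parp9, Dtx3l and Gbp3, or 6.25% beside 4.56%. Below all controls, the close arrays shared 8 members (16.7%, beside 35.1% of all genes) and the other arrays 4 (8.33%, beside 5.79%). The sources used here do not say whether the close arrays are separate samples, and with them averaged as 1 sample Dtx3l was still called in GMP.

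**Figure D3:**
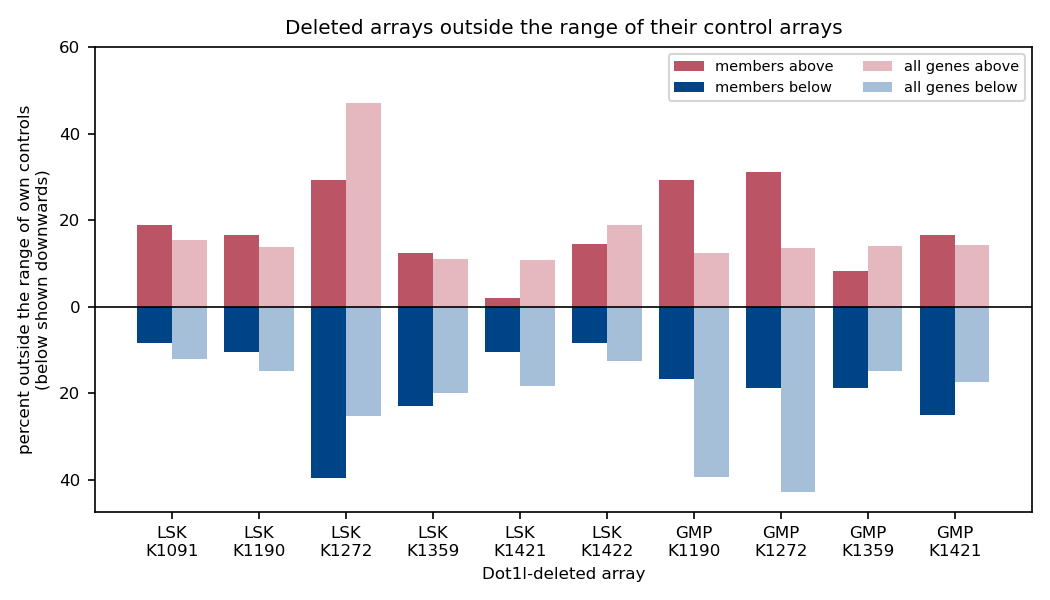
Percent of members and of all genes that lay outside the range of the control arrays of the same cell type, for each Dot1l-deleted array. Bars above 0 are shares above all controls and bars below 0 are shares below all controls. In the GMP arrays K1190 and K1272 the members above reach 29.2% and 31.2%, where all genes reach 12.4% and 13.5%. The LSK array K1272 has 39.6% of members below, where all genes reach 25.2%, and 29.2% of members above, where all genes reach 47.1%.

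The deletion effects differed between the cell types for Dtx3l. The difference, GMP effect minus LSK effect, was 3.39 ± 0.54 on the log2 scale (adjusted p 0.0196), where 1 member (2.08%) was called beside 0.033% of all genes, and 3.18 (adjusted p 0.0192) without the Dot1l-deleted LSK array K1272, where 0.0824% of all genes were called. In LSK the level of Dtx3l was 8.19 ± 0.56 in controls and 7.47 ± 0.77 in deleted arrays, a log2 fold change of -0.72 ± 0.35. The call ended without the Dot1l-deleted GMP array K1190 (adjusted p 0.0679) and with the close GMP arrays averaged (0.0582), at differences of 3.33 and 3.35.

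Other members had large differences that did not pass the test. Rsad2, low in all GMP controls (4.57, 4.16, 5.08, 4.37 and 4.27), was at 5.87, 6.44, 4.97 and 4.58 in Dot1l-deleted GMP, where the close arrays K1190 and K1272 were the high ones. Rtp4 was at 4.48, 5.14, 3.64 and 4.06 in Dot1l-deleted GMP, all but K1359 above its controls. Psmb8 went from 10.56, 11.48, 10.98, 11.55 and 10.46 in control GMP to 10.96, 11.01, 11.20 and 9.29, and the deleted array K1421 was the one below the controls. Psmb9 was at 10.62, 10.61, 10.65 and 10.02 in Dot1l-deleted GMP, with the same array lowest. Iigp1 was at 5.49, 8.20 and 8.46 (lowest, median and highest) in control LSK and at 3.96, 6.71 and 7.81 in Dot1l-deleted LSK, and Socs1 in the latter at 3.39, 4.21 and 6.53. Iigp1 differed by 3.65 ± 1.27 (adjusted p 0.280), Rsad2 by 2.17 ± 0.71 (0.256) and Rtp4 by 1.96 ± 0.72 (0.299), each higher in the GMP effect. Their unused probe sets, in the fit over all probe sets, gave 1.03 for Iigp1, 0.21 and 0.62 for Rsad2 and -0.52 for Rtp4. That of Rtp4 went the opposite way, and that of Iigp1 had an LSK effect of 0.60, against -1.34 for the one used. Unused probe sets kept the direction of Ifi35 (-2.11 and -1.98) and Psmb8 (-0.60). In the other direction Ifi35 differed by -3.83 ± 1.20 (0.242), Psmb9 by -1.48 ± 0.62, Psmb8 by -1.29 ± 0.56 and Socs1 by -1.15 ± 0.56, the last at -0.73 without the Dot1l-deleted LSK array K1272. All 7 GTPases had positive differences and all 4 antigen processing members negative ones, in the values as deposited, under each of 3 other scalings and without that array. Across the members 30 differences were positive and 18 negative (36.2% and 63.8% of all genes), or 27 and 21 without that array (36.6% and 63.4%). The median difference was 0.30, or 0.15 without that array, beside -0.26 and -0.18 over all genes.

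**Figure D4:**
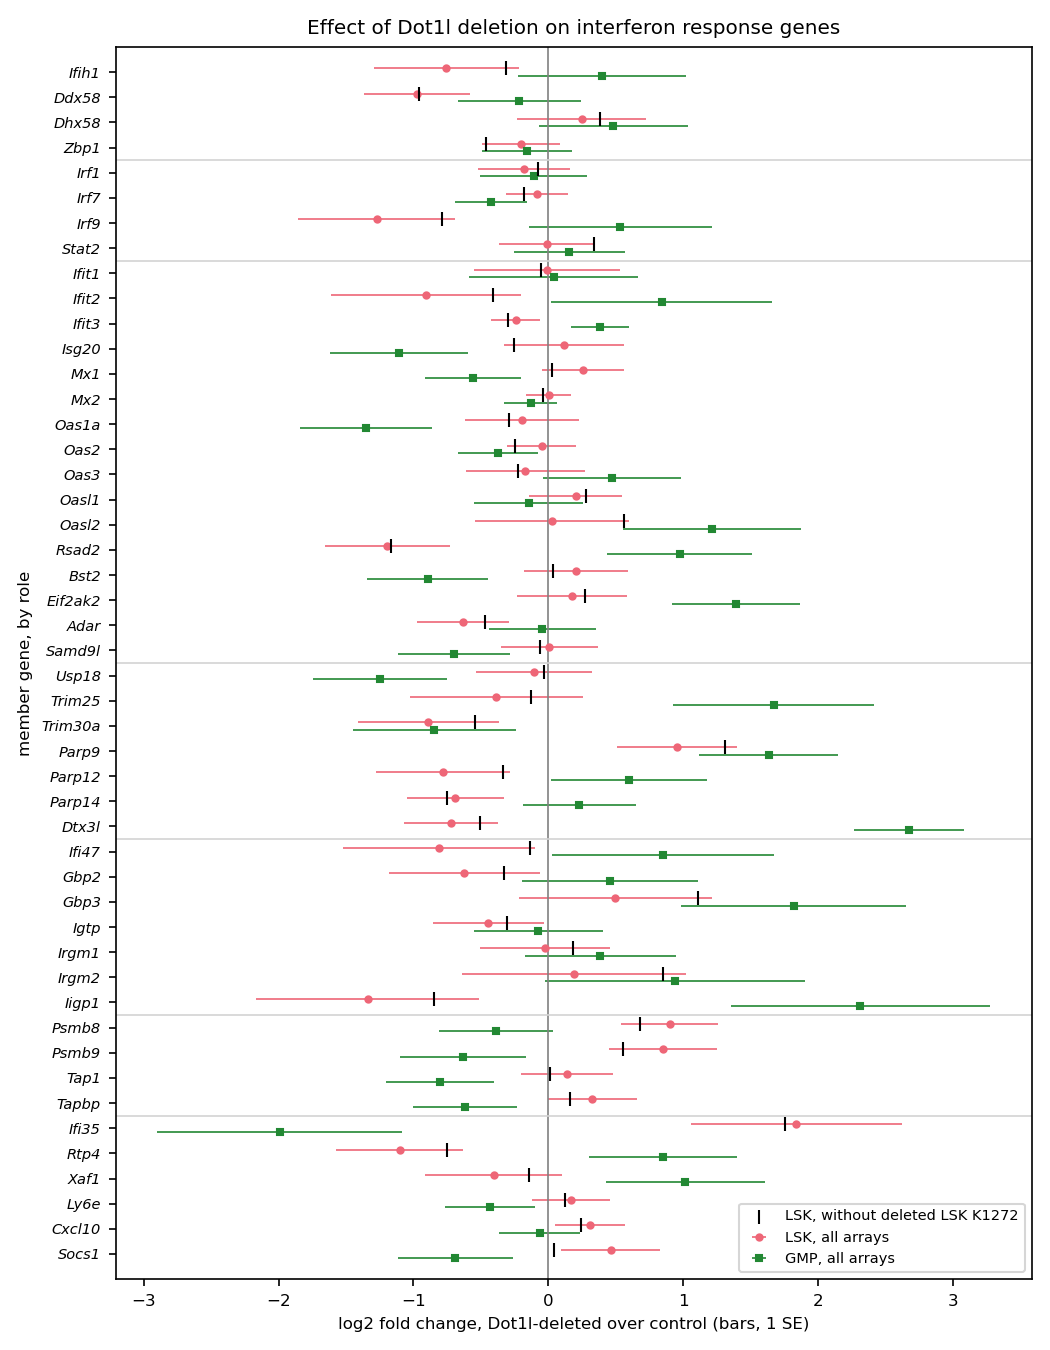
Log2 fold change of each member, Dot1l-deleted over control, in LSK (circles) and GMP (squares) with bars of 1 SE, and in LSK without the Dot1l-deleted array K1272 (vertical ticks). Members are grouped by role. Dtx3l has the highest GMP value, 2.67, and an LSK value of -0.72, and the 4 antigen processing members lie to the right of 0 in LSK and to the left in GMP.

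Between Dot1l-deleted GMP and Dot1l-deleted LSK no member passed the test, with 0.143% of all genes called. The smallest adjusted p was 0.0693, for Isg20, and 1 member higher and 10 lower had an unadjusted p under 0.05 (2.08% and 20.8%, beside 3.81% and 3.47% of all genes). With array K1272 of Dot1l-deleted LSK left out these were 1 and 14 (2.08% and 29.2%, beside 5.34% and 5.12%). Isg20 read 5.76, 6.87 and 8.87 (lowest, median and highest) in Dot1l-deleted LSK, and its 4 GMP readings of 4.52 to 4.94 lay below these, a log2 fold change of -2.35 ± 0.50. Without the Dot1l-deleted LSK array K1272, its highest LSK reading, that was -1.98 with an adjusted p of 0.0377, a call where 0.605% of all genes were called. Samd9l, Ifi35 and Oas1a also lay without overlap below LSK (4 members in all, 8.33% beside 0.929% of all genes), and Ifit3 above it (2.08% beside 1.10%). By sign 34 members were lower and 14 higher, where 48.6% and 51.4% of all genes were. With array K1272 of Dot1l-deleted LSK left out, 37 were lower and 11 higher, where 39.2% and 60.8% of all genes were. Of 29 unused probe sets of the members, 15 had the direction of the one used here and 14 the opposite. The median over members was -0.47, beside 0.01 over all genes, and -0.52 beside 0.10 without that array.

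The 15 members called lower in control GMP were followed in the deleted cells, which are different arrays. Their median log2 fold change, GMP over LSK, went from -2.34 in controls to -0.996 in deleted cells, where 12 of the 15 were still lower and all 15 had a smaller difference. Without the Dot1l-deleted LSK array K1272 the median in deleted cells was -1.15, 13 were still lower and 14 had a smaller difference, all but Irf1. Over the 901 genes called lower in controls, 74.7% were still lower, 97.4% had a smaller difference, and the median went from -2.08 to -0.43. Without that array these were 87.6%, 96.2% and a median of -0.68. Since the 15 were chosen by their control values, some shrinkage follows from the choice. Dtx3l went from -2.85 to 0.54, Iigp1 from -3.64 to 0.01 and Rsad2 from -1.77 to 0.40, and Irf1 from -1.29 to -1.22. Without that array the deleted cells had 0.33 for Dtx3l, -0.48 for Iigp1, 0.38 for Rsad2 and -1.33 for Irf1. Over the same arrays the LSK sort markers had a median difference of -3.25 in controls and -1.65 in deleted cells, or -2.02 without that array, and their part in the members' values was not tested.

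**Figure D5:**
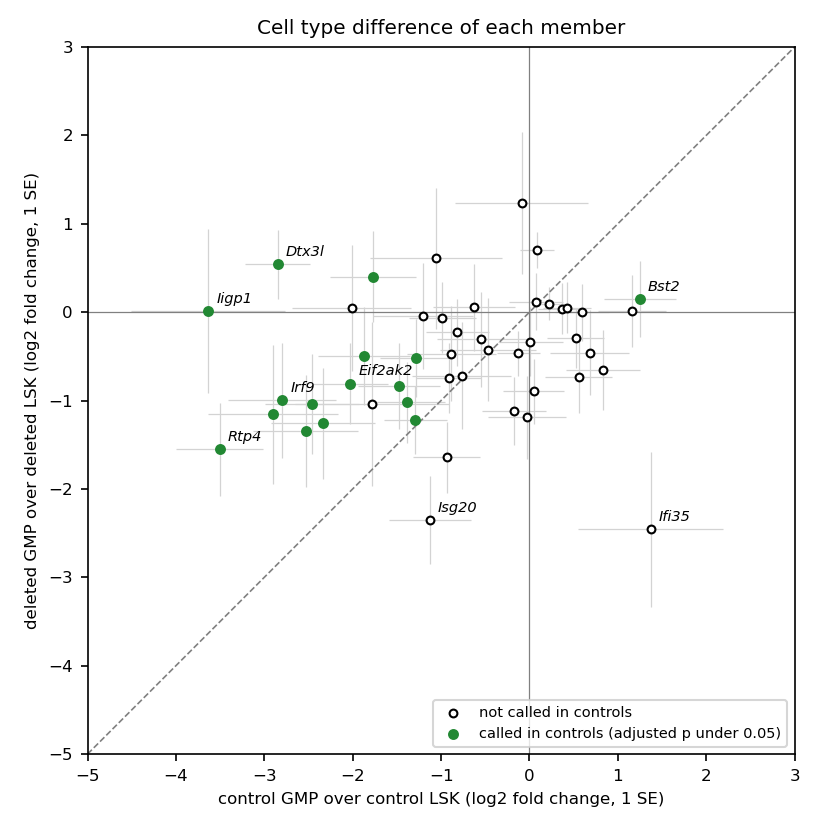
Log2 fold change of GMP over LSK for each member, in control arrays (horizontal) and in Dot1l-deleted arrays (vertical), with bars of 1 SE and a dashed line of equal values. Filled points were called in controls. All 15 filled points left of 0 lie above the dashed line, with Dtx3l at -2.85 and 0.54.

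Other genes of the pathway had no call with deletion in either cell type. In LSK and GMP limma called 0 of 8 receptor and kinase genes, 0 of 11 genes of nucleic acid sensing, 0 of 6 interferon genes, 0 of 8 feedback inhibitors of the JAK-STAT pathway and 0 of 36 further interferon-inducible genes. Of all genes it called 0% in LSK and 0.143% in GMP, so the lack of calls does not set these genes apart. The receptor chains Ifnar1 and Ifnar2 had log2 fold changes of -0.36 and -1.14 in LSK and of 1.40 and -0.05 in GMP. Trim34a, of the further inducible genes, had 2.06 in GMP, with an adjusted p of 0.175. Without the Dot1l-deleted LSK array K1272 that was 0.0443, a call where 2.14% of all genes were called. Ly6a, the gene of the sort marker Sca-1, has no probe set of its own here and gives no value.

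Between control GMP and control LSK, the further inducible genes had 29 of 36 members lower, 4 of them called, and 1 of the 7 higher ones called, where 34.2% of all genes were lower, 4.95% called lower and 7.03% called higher. Without the Dot1l-deleted LSK array K1272, where 30.4% of all genes were called, 7 were called lower and 3 higher. The lower calls were Trim34a at -3.16, Nlrc5, an activator of MHC class I genes, at -3.29, Sp100 at -1.95 and Ifitm1 at -1.75, and the higher call was Ifitm2 at 0.94. Jak2, a receptor-associated kinase, was lower by call at -2.35 ± 0.76 (adjusted p 0.0491), and Traf6, a signalling ligase of sensor pathways, at -2.33 ± 0.55 (adjusted p 0.0110). The next smallest p of these lists belonged to Jak1 at -2.64 (adjusted p 0.0837) and the sensor pathway factor Irf5 at -1.37 (adjusted p 0.0856). Of the feedback inhibitors Socs3 was at 0.85 and Ptpn11 at -0.48, neither called. The interferon genes themselves had low readings, with a list mean of 4.23 ± 0.07 (n = 6) in control LSK and 4.57 ± 0.16 (n = 5) in control GMP, and no call, with Ifnb1 at 0.54 and Ifng at 0.57. Without the Dot1l-deleted LSK array K1272 these 2 of the 6 were called higher, at adjusted p of 0.0254 and 0.0361. In that fit Jak1 (adjusted p 0.0300), Irf5 (0.0310) and Socs3 (0.0388) were called as well.

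Markers of other cell types that a sort could carry moved with some groups. Mature neutrophil markers, 9 genes, had a mean of 9.06 ± 1.63 in control LSK and 6.86 ± 0.68 in Dot1l-deleted LSK (6.73 ± 0.67 without array K1272), and of 7.87 ± 0.24 and 7.04 ± 0.39 in the GMP groups. Of the 9, 8 were lower in control GMP than in control LSK and 2 of them called, where 34.2% of all genes were lower and 4.95% called lower. B cell markers, 7 genes, had 5.35 ± 0.47 and 5.02 ± 0.23 in LSK (the latter 4.98 ± 0.23 without array K1272) and 5.78 ± 0.28 and 4.86 ± 0.20 in GMP. In GMP all 7 were lower with deletion, where 65.7% of all genes were lower, and none was called. Plasmacytoid dendritic cell markers, whose cells are a main source of interferon, had means between 6.08 and 6.21 in all 4 groups. Between control GMP and control LSK 5 of these 9 were higher and 4 lower, and the 1 called higher was Bst2, itself a member. Macrophage and monocyte markers were higher in control GMP in 8 of 10 cases, where 65.8% of all genes were. Of these 1 was called, or 4 without the Dot1l-deleted LSK array K1272 (7.03% and 21.4% of all genes called higher). Erythroid markers had a mean of 7.07 in that array, where its group's median was 5.69. The part of these cells in the members' values was not tested.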

How the data were processed

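RNA of sorted LSK and GMP cells was measured on 21 Affymetrix arrays, 1 per sample. The deposited values are linear probe set intensities made with RMA, per the submitters' processing notes. Genome build and RMA version: not given in the sources used here. Log2 of these intensities was used with no pseudocount and no further scaling. Of 45101 probe sets 34958 had 1 gene symbol, 932 several and 9211 none, and each of 18194 genes was read by its probe set of highest mean. The members, roles and other lists were chosen with earlier results of these data known. Limma 3.58.1 in R 4.3.3 fitted 4 group means over all 21 arrays, with Benjamini-Hochberg adjustment over all genes and a threshold of 0.05; the code was tested on simulated data. Members named were those past the threshold, the 4 of smallest p in each direction of each comparison (deleted cell types aside), the highest and lowest of each role, and a set of regulators; of other lists, those past the threshold and the 2 of smallest p between control cell types. Further names spell out a count or a pattern and were chosen after their values were seen. K numbers shared between cell types were checked as pairs. Over all genes 1 of 9 had a correlation of deviations over 0.1, and over the members the correlations ran from -0.352 to 0.262. The main fit used no pairing, though such correlations cannot show that the samples are unpaired. Alternatives varied scaling, probe set choice, filters, variances, array weights, blocks and left-out arrays. Array weights estimated gene by gene, and averaging the close GMP arrays together with leaving out an LSK array, were chosen after seeing the data.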

Additional observations from a re-analysis of the deposited data

Results flagged for a closer look

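Single arrays far from the rest of their group were looked for in 18 named members and in the mean over all members, in 4 groups each, by the gap to the nearest array as a share of the group's range, and 9 of 76 groups had one, where chance gives about 1 in 20. In Dot1l-deleted LSK array K1272, Irf9 was at 4.70 with the nearest array at 6.87, Psmb9 at 12.59 with the nearest at 11.15, and Socs1 at 6.53 with the nearest at 4.43. In Dot1l-deleted GMP, Eif2ak2 was at 4.64 in array K1359 with the nearest at 7.24, and array K1421 had Psmb8 at 9.29 with the nearest at 10.96 and Psmb9 at 10.02 with the nearest at 10.61. In controls, Dtx3l was at 6.56 in GMP array K1603 with the nearest at 5.20, Rtp4 at 3.96 in GMP array K1602 with the nearest at 3.44, and Iigp1 at 5.49 in LSK array K1602 with the nearest at 7.88. The deletion effect on Dtx3l differed between the cell types by 3.39 on the log2 scale in the test of the difference itself.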

How the results depend on the processing

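Signs were followed in LSK, in GMP, in the difference of effects and between control cell types. There the 4 members of smallest p in each direction kept their sign in the alternatives run. Other named members did not all do so: transcription factors in GMP went from 2 higher and 2 lower to 1 and 3 with the covariate. Some medians near 0 changed sign as well. With quantile normalization the GMP median went from -0.0022 to 0.11 over the members and from -0.09 to 0.06 over antiviral effectors, whose median in the difference went from -0.04 to 0.18. The transcription factor median in the difference went from 0.12 to -0.14 with the covariate and to -0.11 without LSK array K1272, and in GMP from 0.02 to -0.02 with quantile normalization and to -0.18 with the covariate. With array weights, whose estimate stopped before converging, the members called were 1 in LSK (3.64% of all genes), 9 in GMP (20.8%), 8 in the difference of effects (13.3%) and 3 between the deleted cell types (2.86%). With gene-by-gene weights there were 18 in GMP (39.3%, median 0.33), 13 in the difference (23.3%) and 9 between deleted cell types (7.49%). Those weights were 8.89 and 2.32 for the close GMP arrays K1190 and K1272, and 0.253 and 0.297 for K1359 and K1421. So the close arrays, which may not be separate samples, dominated their group. The weights that did not converge gave K1190 0.0080 and K1272 4.10. Keeping only genes above the median level moved the medians to 0.38 in GMP, 0.64 in the difference and -0.73 between deleted cell types, where 1 member was called, as it was with the upper quartile as covariate. In the difference 0 members were called with the close GMP arrays averaged (Dtx3l adjusted p 0.0582), also without LSK array K1272 (0.0541). With the replicate block on shared K numbers, 0 members were called in the difference (Dtx3l adjusted p 0.375) and 6 between control cell types (2.50% of all genes). Only K1190 correlated best with its own number, and the labels do not say whether a shared number marks a shared animal. Leaving out single arrays gave 0 in LSK, 1 to 2 in GMP (2 without Dot1l-deleted array K1359), 0 to 1 in the difference (0 without Dot1l-deleted GMP array K1190), 10 to 20 between control cell types (10 without control LSK K1601, 20 without Dot1l-deleted LSK K1272) and 0 to 1 between deleted cell types (1 without LSK array K1272 or K1359). The causes were not tested. Dim members limit what can be seen: 15 lay below the median gene level. Of 29 unused probe sets 23 had the same direction as the one used between control cell types, 21 in the difference of effects and 20 in GMP. In LSK 16 did, and between deleted cell types 15.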
